A study of Mus musculus with 8 samples.

Results

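The genes examined here encode 10 amino-acid transporters of the plasma membrane. They were chosen by name, as the genes with the GENCODE M21 symbols *Slc7a1*, *Slc7a5*, *Slc3a2*, *Slc7a11*, *Slc7a6*, *Slc1a4*, *Slc1a5*, *Slc38a1*, *Slc38a2* and *Slc43a1*. The names were picked with earlier results of these data known, so the shares of all genes given beside the counts are for reference only. All 10 were found among the 54838 genes listed in the count tables, and all 10 were among the 12405 genes that passed the filter on low counts. Their transcripts were measured by RNA-seq in mouse *iMLL-AF9* cells, leukemic cells with a doxycycline-inducible *MLL-AF9* fusion oncogene, from mice on a C57BL/6 background. The labels give bone marrow as the tissue, leukemic stem cells as the cell type and WT as the genotype of all samples, whereas the design text names preleukemic cells. In each group 4 samples, numbered 1 to 4, were sequenced, 1 group treated with IOX5, an inhibitor of the HIF prolyl hydroxylases (PHDs), and 1 with DMSO, its vehicle. No source used here ties a dose or a duration of treatment to these samples or says what the numbers mark. The comparison asks which transcripts change when PHD activity is inhibited.

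Amino acids are charged or polar and cross the plasma membrane through carrier proteins, which cells use to feed protein synthesis, nucleotide synthesis and redox defense. Some carriers are heteromers, in which a light chain that transports (SLC7A5, SLC7A6 or SLC7A11) is held in the membrane by the glycoprotein heavy chain SLC3A2. Others work alone, among them the cationic carrier SLC7A1, the sodium-dependent neutral exchangers SLC1A4 and SLC1A5 and the sodium-coupled glutamine carriers SLC38A1 and SLC38A2. Blood cells make heavy use of leucine and glutamine when they divide, and several of these genes are textbook targets of ATF4, the transcription factor of the amino-acid response.

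RefSeq promoter windows of build GRCm38.p6, each 250 bases before to 50 bases after a transcription start, were found for 7 of the 10 genes. No window is printed for *Slc7a5*, *Slc1a5* and *Slc38a1*. The windows of 4 genes are shown, because 3 of these genes (*Slc7a1*, *Slc38a2* and *Slc1a4*) were lower with IOX5 in at least 1 of the edgeR fits described below and the fourth (*Slc7a11*) was not. All 4 lie on the minus strand and are written 5′ to 3′ along the gene, at chr5:148399855-148400154 for *Slc7a1*, chr15:96699679-96699978 for *Slc38a2*, chr11:20332664-20332963 for *Slc1a4* and chr3:50443564-50443863 for *Slc7a11*. Capitals mark matches to TGATGNAAN, the C/EBP-ATF response element through which ATF4 acts, or to TGACNNNGC, the antioxidant response element, on either strand.
Slc7a1: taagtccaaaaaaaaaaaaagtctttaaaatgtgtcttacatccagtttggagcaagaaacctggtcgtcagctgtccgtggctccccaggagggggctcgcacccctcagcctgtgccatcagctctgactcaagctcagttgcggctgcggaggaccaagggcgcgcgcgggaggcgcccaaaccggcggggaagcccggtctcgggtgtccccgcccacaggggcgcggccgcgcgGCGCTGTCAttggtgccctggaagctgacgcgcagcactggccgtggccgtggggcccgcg
Slc38a2: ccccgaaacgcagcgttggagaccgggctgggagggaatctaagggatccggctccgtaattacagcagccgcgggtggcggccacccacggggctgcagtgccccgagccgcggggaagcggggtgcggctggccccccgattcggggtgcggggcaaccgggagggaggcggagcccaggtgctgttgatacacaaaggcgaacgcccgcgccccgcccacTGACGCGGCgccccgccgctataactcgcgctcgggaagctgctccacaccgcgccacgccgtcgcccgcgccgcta
Slc1a4: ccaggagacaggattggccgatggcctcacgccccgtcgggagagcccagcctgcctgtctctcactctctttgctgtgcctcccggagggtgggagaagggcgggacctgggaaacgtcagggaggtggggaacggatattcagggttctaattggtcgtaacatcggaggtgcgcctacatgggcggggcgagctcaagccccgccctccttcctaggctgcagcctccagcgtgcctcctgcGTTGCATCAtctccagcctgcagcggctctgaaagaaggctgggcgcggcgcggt
Slc7a11: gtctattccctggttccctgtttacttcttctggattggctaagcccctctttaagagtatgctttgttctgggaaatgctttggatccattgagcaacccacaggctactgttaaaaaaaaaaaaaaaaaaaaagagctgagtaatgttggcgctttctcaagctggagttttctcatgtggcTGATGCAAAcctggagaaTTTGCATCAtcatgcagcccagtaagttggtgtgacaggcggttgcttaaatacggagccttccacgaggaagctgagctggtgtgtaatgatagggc
The *Slc7a11* window held TGATGNAAN at both -66 on the gene's strand and -48 on the opposite strand, counted from the transcription start, and the *Slc1a4* window held it at -5 on the opposite strand. TGACNNNGC was found at -11 on the opposite strand in the printed window of *Slc7a1* and at -27 in *Slc38a2*, and also in the windows of *Slc7a6* and *Slc43a1*. The letters ACGTG, the core of the hypoxia response element, were in none of these 4 windows. They were at -164 on the opposite strand in *Slc3a2*, at -250 and at 2 in the first of the 2 overlapping windows of *Slc7a6* (the latter match lies at -66 in the second window), and at -64 and -63 in *Slc43a1* as parts of a CACGTG. A second window of *Slc7a1*, at chr5:148392766-148393065, is not printed and held none of the letters searched for. Of all 32851 promoter windows, 19.6% held ACGTG, 7.15% CACGTG, 3.95% TGATGNAAN and 12.4% TGACNNNGC. A match describes the letters in the window and not a bound site.

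The reads assigned to genes numbered 12343770 to 14116054 in the DMSO samples and 11351507 to 12708888 in the IOX5 samples. All 6 markers of the MLL-AF9 program were expressed in every group (summed level 1028 to 1221 CPM with DMSO and 1057 to 1191 CPM with IOX5, where CPM is the read count scaled to a common library size with TMM factors). The samples split by number within each group, with *Cd34* at 23.2 and 25.98 CPM in DMSO numbers 1 and 2 against 133.1 and 153.0 CPM in numbers 3 and 4, so values within numbers are given throughout. Of the 6 macrophage markers, *Adgre1* and *Mrc1* were higher with IOX5 in every number and made up most of the summed level. The sum was 37.9 to 76.2 CPM with DMSO and 83.4 to 237.9 CPM with IOX5. *C1qb* was lower with IOX5 in numbers 1 and 4 and higher in numbers 2 and 3. *C1qa* and *Marco* reached at most 0.706 CPM, and *Cd163* was at 0 in all 8 samples but 1. Mast cell and basophil markers ranged from 159.3 to 587.3 CPM with DMSO and from 257.5 to 944.5 CPM with IOX5. Without a block edgeR called 0 of the markers tested in any of these lists, while 2 of 3 tested macrophage and 2 of 6 MLL-AF9 program markers had an unadjusted p under 0.05, and DESeq2 called 2 macrophage markers. Over all genes, 2506 of 12405 had an unadjusted p under 0.05 by edgeR, and DESeq2 called 602 lower and 489 higher. With the replicate number as a block, 2 macrophage, 6 of 6 mast cell and basophil, 5 of 6 myeloid progenitor, 2 of 5 tested erythroid and 1 of 2 tested stromal and endothelial markers were higher, and 2 markers of the MLL-AF9 program were lower and 1 higher. In that fit 11.2% of all genes were called higher and 9.43% lower. *Pecam1* made up nearly all of the stromal and endothelial level, at 82.6 to 162.9 CPM with DMSO and 130.6 to 217.7 CPM with IOX5. The next of that list, *Col1a1*, reached at most 1.22 CPM in any sample. The part of these other cell markers in the results that follow was not tested. The T cell markers summed to at most 0.162 CPM in any sample. In bulk samples, fewer cells of one type and less RNA per cell cannot be told apart.

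Transcripts of *Slc7a5*, *Slc7a1* and *Slc38a1* fell with IOX5. These 3 of the 10 genes were called lower and 0 higher at an adjusted p under 0.05 by edgeR's quasi-likelihood test without a block, where 1.25% of all genes tested were called lower and 0.774% higher. Of the other 7 genes, 2 had an unadjusted p under 0.05 in this fit, as did 2506 of all 12405 genes tested. When the replicate number was entered as a block, 5 of the 10 were called lower and 0 higher (*Slc38a2* and *Slc1a4* were added), against 9.43% of all genes lower and 11.2% higher. DESeq2 called 4 lower, the same 3 and *Slc38a2*, against 5.75% of the genes for which it gave an adjusted p. The fitted log2 fold change was negative for 8 genes and positive for 2, with a median of -0.24, against 0.017 over all genes tested.

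For 5 of the 10 genes every IOX5 sample lay below every DMSO sample, which held for 8.30% of all genes tested. Within the replicate numbers, 7 of the 10 were lower with IOX5 in all 4 pairs (19.8% of all genes tested) and 0 were higher in all 4 (21.3%). The transcripts of the 10 genes together made up 2585, 2721, 2686 and 2650 CPM in DMSO numbers 1 to 4 and 2017, 2078, 2292 and 2211 CPM in the IOX5 samples of the same numbers.

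**Figure D1:**
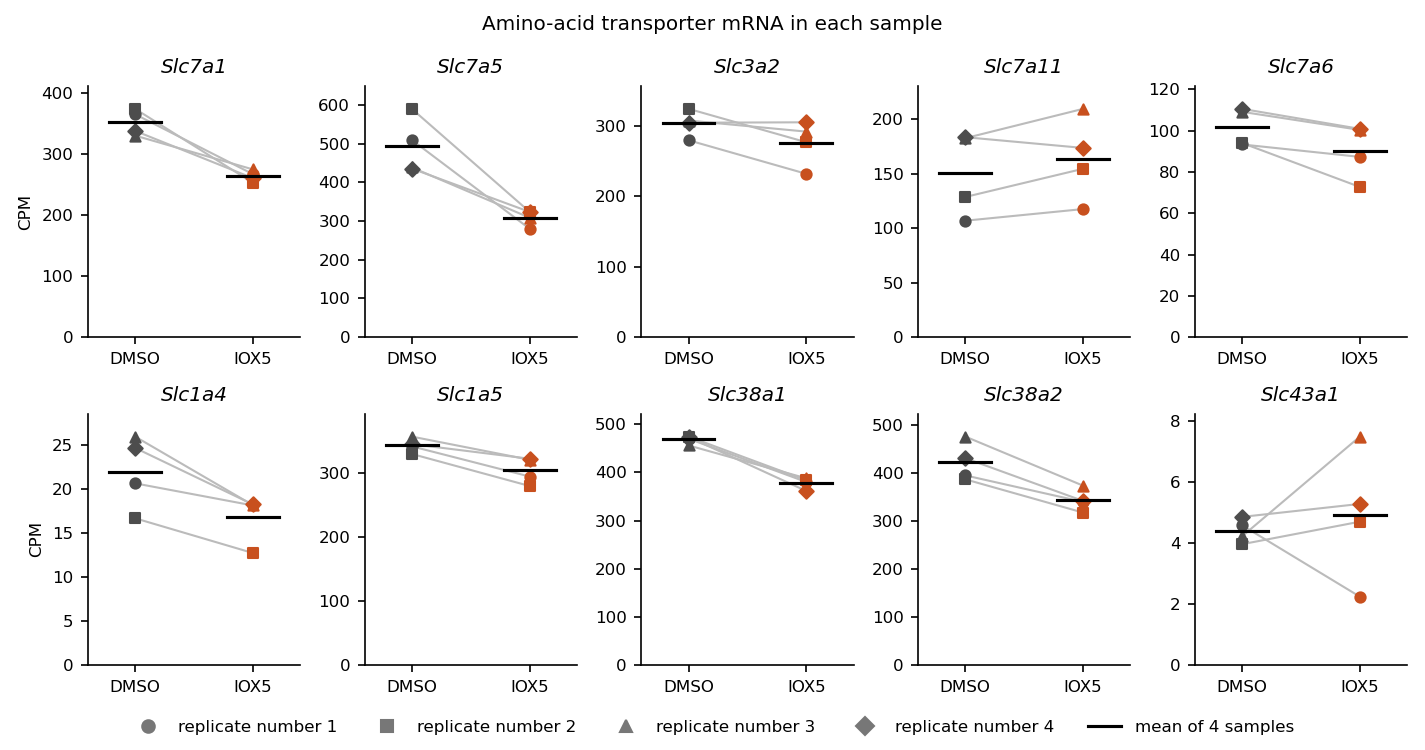
Level of each of the 10 transporter transcripts (y axis, TMM-normalized CPM from 0) in the 4 DMSO and 4 IOX5 samples, with marker shape for the replicate number, grey lines between samples of the same number and bars for the mean of 4 samples. The IOX5 samples of *Slc7a5* (280.1 to 323.8 CPM) all sit below its DMSO samples (435.9 to 590.2 CPM), whereas those of *Slc7a11* lie across the DMSO range.

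*Slc7a5* encodes LAT1, the light chain that imports leucine and other large neutral amino acids (ENSMUSG00000040010; GRCm38 chromosome 8, 121881150 to 121907694, minus strand). With DMSO its level was 509.8, 590.2, 438.7 and 435.9 CPM in numbers 1 to 4, and with IOX5 280.1, 323.8, 308.7 and 323.7 CPM. The groups did not overlap, and the DMSO samples spread more widely than the IOX5 samples, with numbers 1 and 2 the highest. The mean fell from 493.6 ± 72.9 CPM (SD, n = 4) to 309.1 ± 20.6 CPM (SD, n = 4), which is 37.4% lower. The log2 fold change was -0.68 (SE 0.105, adjusted p = 0.0254 by edgeR), and -0.67 with the replicate block (95% interval -0.84 to -0.49, adjusted p = 0.000228 by edgeR). Of the 10 genes *Slc7a5* had the most negative fitted fold change in both fits. Within numbers the level was 45.0%, 45.1%, 29.6% and 25.7% lower, so that the difference was larger in numbers 1 and 2 than in numbers 3 and 4, although whether these differ was not tested. With the block, numbers 1 and 2 alone gave a log2 fold change of -0.88 and numbers 3 and 4 alone -0.47.

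The cationic carrier gene *Slc7a1*, whose product imports arginine, lysine and ornithine (ENSMUSG00000041313; chromosome 5, 148327410 to 148399904, minus strand), is the gene of the promoter window printed first above. It was measured at 364.7, 373.5, 329.8 and 337.5 CPM with DMSO and at 266.7, 252.6, 274.4 and 260.1 CPM with IOX5. All IOX5 samples were lower than all DMSO samples. The mean fell by 25.02%, from 351.4 ± 21.03 to 263.4 ± 9.32 CPM (SD, n = 4 each), with a log2 fold change of -0.42 (SE 0.060, adjusted p = 0.0230 by edgeR). Within numbers it was 26.9%, 32.4%, 16.8% and 22.9% lower.

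Both genes of the sodium-coupled glutamine and alanine carriers were lower in all 4 pairs. *Slc38a1*, which encodes SNAT1 (ENSMUSG00000023169; chromosome 15, 96571418 to 96642913, minus strand), was measured at 470.0, 474.3, 456.0 and 473.5 CPM with DMSO and at 379.9, 383.5, 387.5 and 361.2 CPM with IOX5. Among the 10 genes it varied least between samples for its level, with a mean of 468.4 ± 8.53 CPM with DMSO and 378.0 ± 11.6 CPM with IOX5 (SD, n = 4 each), 19.3% lower. The log2 fold change was -0.31 (SE 0.049, adjusted p = 0.0254 by edgeR). Within numbers *Slc38a1* was 19.2%, 19.2%, 15.01% and 23.7% lower. It was not called without a filter on low counts (adjusted p = 0.0883 by edgeR).

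*Slc38a2* encodes SNAT2, the system A carrier that is known to be induced when amino acids run short (ENSMUSG00000022462; chromosome 15, 96687392 to 96699730, minus strand). Its level was 394.2, 386.0, 474.9 and 430.0 CPM with DMSO and 338.9, 316.8, 372.8 and 341.0 CPM with IOX5. No IOX5 sample reached the lowest DMSO sample, and in both groups number 3 was the highest. The mean was 421.3 ± 40.5 CPM with DMSO and 342.4 ± 23.0 CPM with IOX5 (SD, n = 4 each), with a log2 fold change of -0.30 (SE 0.082). Without the block it missed the threshold (edgeR adjusted p = 0.0909), and it passed with the block (0.00536) and by DESeq2 (0.0190).

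The calls of *Slc7a5*, *Slc7a1* and *Slc38a1* without the block depended on having all samples. Without IOX5 replicate 2 or IOX5 replicate 4, all 3 stayed under the threshold. Without DMSO replicate 1, 2, 3 or 4, IOX5 replicate 1 or IOX5 replicate 3, none of the 10 genes was called by edgeR, while between 4 and 6 of them had an unadjusted p under 0.05. So did 1846 to 2351 of the 12535 to 12617 genes tested in those fits. In the same 6 fits few of all genes were called lower, namely 4, 7, 0 and 0 without DMSO replicates 1 to 4, 35 without IOX5 replicate 1 and 0 without IOX5 replicate 3. Over these 8 fits the log2 fold change of *Slc7a5* ran from -0.73 to -0.58 (highest adjusted p by edgeR 0.0902), that of *Slc7a1* from -0.45 to -0.39 (0.0921) and that of *Slc38a1* from -0.32 to -0.29 (0.131). With the block, all 3 remained called with each replicate number left out in turn, whereas *Slc38a2* (adjusted p = 0.0644 by edgeR) and *Slc1a4* (0.107) were not called without number 3.

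**Figure D2:**
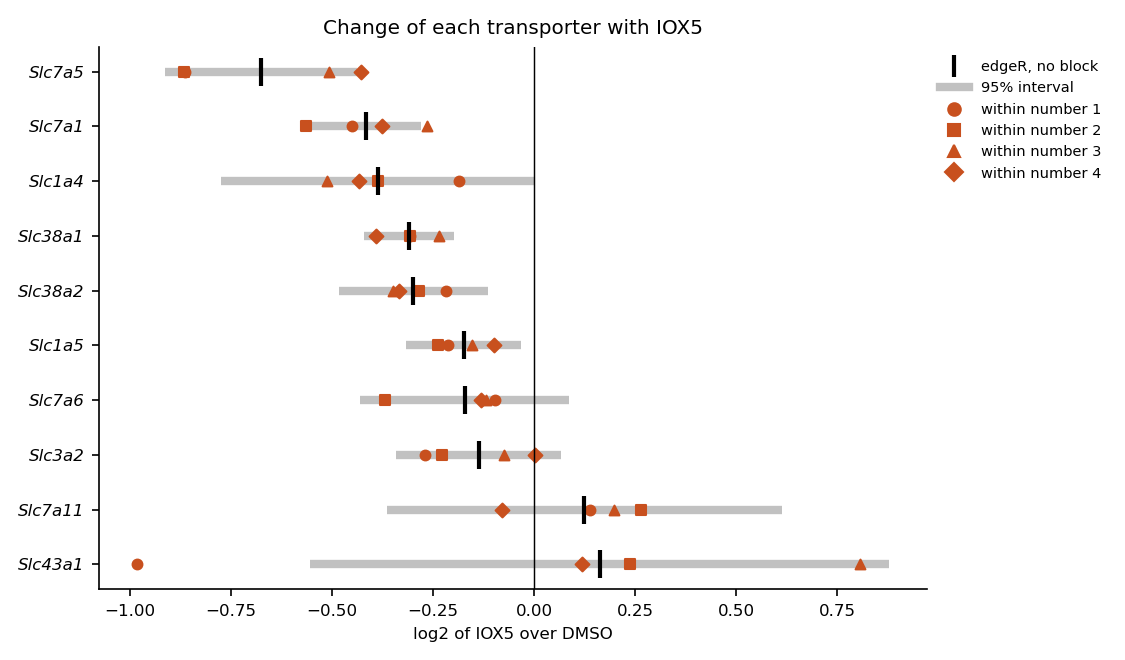
Change of each transporter transcript (x axis, log2 of IOX5 over DMSO), with black ticks for the edgeR estimate without a block, grey bars for its 95% interval and markers for the difference within each replicate number. All 4 markers lie left of 0 for 7 genes, and the estimates run from -0.68 for *Slc7a5* to 0.16 for *Slc43a1*.

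Neither neutral exchanger of the SLC1 family was called without the block. *Slc1a4*, which encodes ASCT1, a carrier of alanine, serine and cysteine (ENSMUSG00000020142; chromosome 11, 20302180 to 20332713, minus strand), was measured at 20.6, 16.6, 25.9 and 24.6 CPM with DMSO and at 18.1, 12.7, 18.1 and 18.2 CPM with IOX5. The groups overlapped, since DMSO replicate 2 was below 3 of the IOX5 samples, but the IOX5 sample was the lower in each of the 4 pairs. The means were 21.95 ± 4.20 and 16.8 ± 2.73 CPM (SD, n = 4 each), with a log2 fold change of -0.39 (SE 0.172). Without the block it missed the threshold (edgeR adjusted p = 0.251), and with the block it passed (0.0132).

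*Slc1a5* encodes ASCT2, a glutamine exchanger (ENSMUSG00000001918; chromosome 7, 16781340 to 16798274, plus strand). Its level was 341.6, 329.8, 356.9 and 345.1 CPM with DMSO and 294.5, 279.6, 320.7 and 322.3 CPM with IOX5. The groups did not overlap, but the gap between DMSO replicate 2 and IOX5 replicate 4 was small. The mean was 343.4 ± 11.2 CPM with DMSO and 304.3 ± 20.8 CPM with IOX5 (SD, n = 4 each), 11.4% lower, with a log2 fold change of -0.17 (SE 0.063). *Slc1a5* was not called (adjusted p = 0.168 by edgeR, and 0.0604 with the block).

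The heavy chain gene *Slc3a2*, which encodes 4F2hc or CD98 (ENSMUSG00000010095; chromosome 19, 8706882 to 8723369, minus strand), was lower with IOX5 in 3 of the 4 pairs. It was measured at 279.7, 324.4, 307.8 and 304.7 CPM with DMSO and at 232.0, 276.9, 292.0 and 305.3 CPM with IOX5. IOX5 replicates 3 and 4 lay within the DMSO range, replicate 4 also above its own pair, and IOX5 replicate 1 was the lowest of all 8 samples. Within numbers *Slc3a2* was 17.1%, 14.6% and 5.12% lower in numbers 1 to 3 and 0.195% higher in number 4. The mean was 304.1 ± 18.4 CPM with DMSO and 276.5 ± 31.9 CPM with IOX5 (SD, n = 4 each), and the log2 fold change of -0.14 (95% interval -0.34 to 0.067) was not called (adjusted p = 0.436 by edgeR, and 0.148 with the block). Whether this change differs from that of *Slc7a5* was not tested.

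*Slc7a6* encodes y+LAT2, a light chain that exchanges arginine for neutral amino acids (ENSMUSG00000031904; chromosome 8, 106168857 to 106198706, plus strand). Its level was 93.3, 94.0, 109.1 and 110.6 CPM with DMSO and 87.3, 72.7, 100.4 and 100.9 CPM with IOX5. The IOX5 sample was the lower in each pair, but the groups overlapped because numbers 3 and 4 stood above numbers 1 and 2 in both. The log2 fold change was -0.17 (95% interval -0.43 to 0.087, adjusted p = 0.443 by edgeR, and 0.0770 with the block).

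*Slc7a11* encodes xCT, the light chain that exports glutamate in exchange for cystine, the precursor of cysteine for glutathione (ENSMUSG00000027737; chromosome 3, 49892526 to 50443614, minus strand). With DMSO it was measured at 106.8, 128.6, 182.5 and 183.4 CPM and with IOX5 at 117.5, 154.4, 209.4 and 173.5 CPM. Numbers 3 and 4 were higher than numbers 1 and 2 in both groups, and the IOX5 sample was the higher in 3 of the 4 pairs. The means were 150.3 ± 38.7 and 163.7 ± 38.3 CPM (SD, n = 4 each), with a log2 fold change of 0.12 (95% interval -0.36 to 0.61, adjusted p = 0.790 by edgeR). With the block the estimate was 0.13 and its interval narrowed to -0.021 to 0.28 (adjusted p = 0.203 by edgeR).

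*Slc43a1* encodes LAT3, a carrier of branched-chain amino acids that needs no heavy chain (ENSMUSG00000027075; chromosome 2, 84838850 to 84863594, plus strand). It was barely expressed, with between 28 and 96 reads per sample. Its level was 4.59, 3.97, 4.22 and 4.86 CPM with DMSO and 2.24, 4.71, 7.504 and 5.29 CPM with IOX5, so that IOX5 held both the lowest and the highest sample. The IOX5 samples spread more widely than the DMSO samples (SD 2.16 and 0.395 CPM, n = 4 each), and the difference was not called (log2 fold change 0.16, 95% interval -0.55 to 0.88, adjusted p = 0.813 by edgeR).

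Levels were compared between genes per length of merged exons (RPKM). With DMSO *Slc7a5* was the highest at 133.1 ± 19.7 RPKM, followed by *Slc3a2* at 86.2 ± 5.22 RPKM and *Slc1a5* at 82.3 ± 2.68 RPKM (SD, n = 4 each), whose ranges overlapped. Next came *Slc38a2* at 47.7 RPKM, *Slc7a1* at 30.5, *Slc38a1* at 27.2, *Slc7a6* at 22.3, *Slc7a11* at 10.8, *Slc1a4* at 5.59 and *Slc43a1* at 0.772 RPKM (DMSO means). In the DMSO samples the range of each gene below *Slc1a5* lay wholly under that of the gene before it. The order of the means was the same with IOX5, where *Slc7a5* stood at 83.4 ± 5.55 RPKM and *Slc3a2* at 78.4 ± 9.03 RPKM (SD, n = 4 each), with overlapping ranges. The order depends on the length used. With the length of the longest transcript, *Slc1a5* (122.3 RPKM) stood above *Slc3a2* (108.1) and *Slc38a1* (64.5) above *Slc7a1* (48.9) with DMSO, and with IOX5 *Slc1a5* (108.4) stood above *Slc3a2* (98.3) and *Slc7a5* (87.9).

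**Figure D3:**
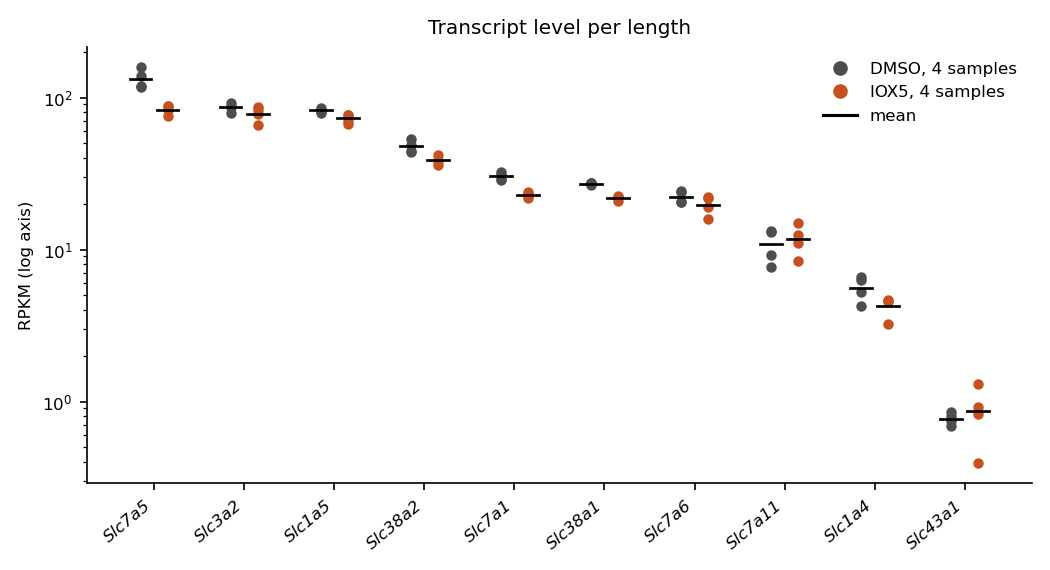
Level of each transporter transcript per exon length (y axis, RPKM on a log scale) in each sample, ordered by the DMSO mean, with bars for the mean of 4 samples per group. The DMSO means run from 133.1 RPKM for *Slc7a5* to 0.772 RPKM for *Slc43a1*.

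Because the light chains share SLC3A2, each was also expressed relative to it within a sample, as a ratio of RPKM values. The *Slc7a5* to *Slc3a2* ratio was 1.73, 1.73, 1.36 and 1.36 in DMSO numbers 1 to 4 and 1.15, 1.11, 1.01 and 1.01 in the IOX5 samples. It was lower with IOX5 in every pair and did not overlap between groups (mean 1.55 ± 0.216 with DMSO and 1.07 ± 0.0727 with IOX5, SD, n = 4 each). The ratio separated numbers 1 and 2 from numbers 3 and 4 in both groups. For *Slc7a6* the ratio was 0.259 ± 0.0252 with DMSO and 0.253 ± 0.0369 with IOX5, and for *Slc7a11* 0.125 ± 0.0305 and 0.149 ± 0.0230 (SD, n = 4 each), and both overlapped between groups. The *Slc7a11* ratio was higher with IOX5 in numbers 1, 2 and 3 and lower in number 4. The 3 light chains together stood at 1.78 to 2.09 times the heavy chain with DMSO and at 1.41 to 1.57 times with IOX5. This sum does not cover every light chain. It leaves out *Slc7a8*, described below, which was higher with IOX5 in all 4 pairs. All values in this paragraph are ratios of mRNA, not of protein at the membrane.

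**Figure D4:**
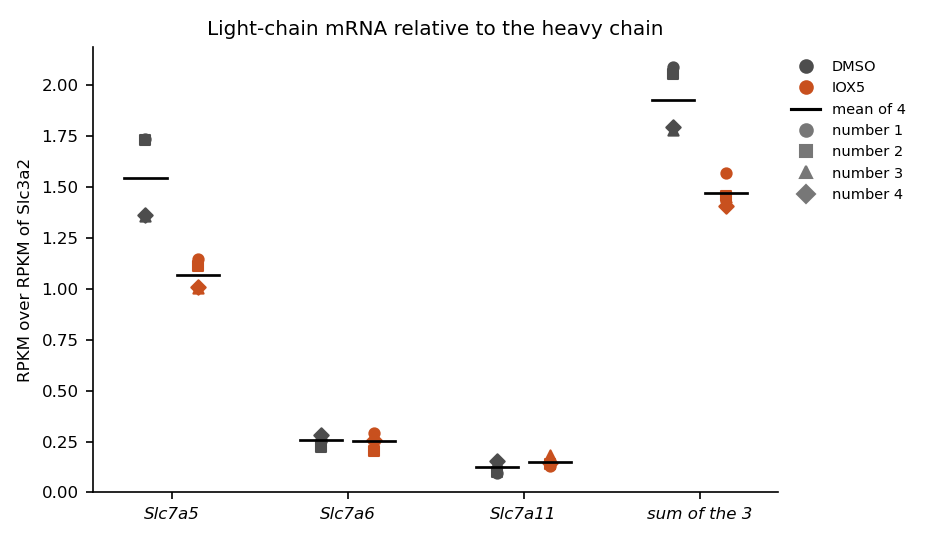
Ratio of each light-chain transcript to the heavy-chain transcript *Slc3a2* in the same sample (y axis, RPKM over RPKM), with marker shape for the replicate number and bars for the mean of 4 samples. For *Slc7a5* the DMSO samples (1.36 to 1.73) lie above the IOX5 samples (1.01 to 1.15), and for *Slc7a6* and *Slc7a11* the groups overlap.

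For the 3 genes called without the block, the transcripts with the most similar pattern were sought among 8916 other genes with a mean of at least 10 CPM, by the root mean square difference of mean-centered log2 CPM over the 8 samples. Closest to *Slc7a1* were *Arhgap11a* (difference 0.0466), *Gemin5* (0.0508) and *Slc25a25* (0.0544). For *Slc7a5*, whose own values spread by 0.36 around their mean on the same scale, the closest were *Cad* (0.102), *Plk1* (0.127) and *Mdc1* (0.128). *Slc38a1* was matched most closely by *Bmp2k* (0.0180), *Thada* (0.0307) and *Phip* (0.0373). Between the transporters themselves, *Slc7a1* and *Slc38a1* differed by 0.0765, *Slc7a1* and *Slc7a5* by 0.169 and *Slc7a5* and *Slc3a2* by 0.296. *Slc7a5* differed by 0.290 from *Slc38a2*, by 0.300 from *Slc1a5* and by 0.351 from *Slc7a6*. These differences depend also on each gene's own spread, which was 0.216 for *Slc7a1* and 0.158 for *Slc38a1*.

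Other amino-acid transporters of the plasma membrane were mostly too low to test. Of 32 such genes 8 passed the filter on low counts, of which 1 had a negative and 7 a positive log2 fold change (median 0.32). Over all genes tested 47.2% were negative and the median was 0.017. Without the block 0 were called by edgeR and 0 by DESeq2, and 1 had an unadjusted p under 0.05 by edgeR, as did 2506 of all 12405 genes tested. With the block 4 were higher and 1 lower, against 11.2% and 9.43% of all genes tested. *Slc43a2*, which encodes the branched-chain carrier LAT4, stood at 118.8 ± 11.6 CPM with DMSO and 156.4 ± 46.1 CPM with IOX5 (SD, n = 4 each; edgeR adjusted p = 0.0168 in the blocked fit). *Slc7a8*, which encodes LAT2, another light chain partner of SLC3A2, stood at 58.6 ± 22.02 and 79.8 ± 23.7 CPM (SD, n = 4 each; edgeR adjusted p = 0.0179 in the blocked fit). *Slc36a2* was expressed at only 0.857 ± 0.0923 and 1.83 ± 0.789 CPM (SD, n = 4 each; edgeR adjusted p = 0.0252 in the blocked fit). In all 4 pairs the IOX5 sample was the higher for each of these 3 genes, but in the unblocked fit edgeR gave adjusted p-values of 0.261, 0.449 and 0.121. In the blocked fit without number 3, the adjusted p by edgeR of *Slc43a2* was 0.0904 and of *Slc7a8* 0.0909, and *Slc36a2* missed the threshold without number 3 or number 4 (up to 0.139). The lower gene was *Slc16a10*, a carrier of aromatic amino acids, which was chosen for mention after its values were seen (log2 fold change -0.23, adjusted p = 0.458 without and 0.0360 with the block by edgeR). Its call was lost whichever number was left out (0.0609 to 0.145).

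Carriers of the lysosome and mitochondria were divided evenly, with a negative log2 fold change for 9 of the 18 genes tested (of 20), a positive one for 9 and a median of 0.013. Without the block 0 of them were called by edgeR, 5 had an unadjusted p under 0.05, and DESeq2 called 1 higher. Over all genes, 2506 of 12405 had an unadjusted p under 0.05 by edgeR, and DESeq2 called 489 higher. With the block 2 of 18 were lower and 2 higher, close to the 9.43% and 11.2% of all genes. *Sfxn3*, a sideroflexin of the inner mitochondrial membrane, stood at 25.5 ± 3.09 CPM with DMSO and 35.3 ± 2.57 CPM with IOX5 (SD, n = 4 each; edgeR adjusted p = 0.00502 blocked and 0.0584 unblocked). *Slc25a13*, an aspartate-glutamate carrier, stood at 82.7 ± 6.46 and 69.2 ± 4.27 CPM (SD, n = 4 each; 0.0232 blocked and 0.108 unblocked). *Sfxn1*, the mitochondrial serine carrier, stood at 202.9 ± 5.42 and 173.7 ± 17.8 CPM (SD, n = 4 each; 0.0298 and 0.156). The blocked call of *Sfxn3* held with each number left out, whereas that of *Slc25a13* held only without number 1 and that of *Sfxn1* only without number 4 (highest adjusted p by edgeR 0.119 and 0.158).

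Of 25 enzymes that use or make amino acids, 21 were tested. A negative log2 fold change was found for 13 of these (61.9%), against 47.2% of all genes tested. The median of the 21 was -0.16. *Phgdh*, *Psat1* and *Psph* of serine synthesis and *Asns* of asparagine synthesis were among the 13, whereas *Glul* of glutamine synthesis was not. The values of this list therefore do not describe the use of imported amino acids alone. *Shmt2*, the mitochondrial serine hydroxymethyltransferase, was the 1 gene called without the block. It fell from 347.3 ± 8.84 to 248.5 ± 27.4 CPM (SD, n = 4 each; log2 fold change -0.48, SE 0.079, adjusted p = 0.0260 by edgeR). The call was lost without any of the 4 DMSO samples, IOX5 replicate 1 or IOX5 replicate 3 (adjusted p up to 0.124 by edgeR). With the block 7 of 21 were lower and 2 higher (9.43% and 11.2% of all genes). The 7 lower genes were *Shmt2*, *Bcat1*, *Cth*, *Psat1*, *Shmt1*, *Asns* and *Phgdh*, and so included the synthesis genes *Psat1*, *Asns* and *Phgdh*. *Bcat1*, which transaminates branched-chain amino acids, varied widely (15.7 to 62.1 CPM with DMSO, 4.64 to 42.1 CPM with IOX5) and was lower in all 4 pairs, and edgeR gave an adjusted p of 0.483 unblocked and 0.000487 blocked. The 2 that were higher with the block were *Gclm*, the regulatory subunit of the enzyme that starts glutathione synthesis (195.8 ± 37.7 and 262.2 ± 38.7 CPM), and *Bckdha*, a subunit of the branched-chain ketoacid dehydrogenase (41.9 ± 5.29 and 57.4 ± 6.14 CPM, SD, n = 4 for each mean). edgeR gave them adjusted p-values of 0.000649 and 0.000815 in the blocked fit and 0.174 and 0.0686 in the unblocked one. *Bckdha* was chosen for mention after its values were seen.

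Among the 13 genes of the ATF4 branch of the amino-acid response, all of which were tested, 8 had a negative and 5 a positive log2 fold change (median -0.037). The list held none of the transporters or enzymes of the lists above, so its median does not describe all targets of ATF4. *Chac1*, which encodes a glutathione-degrading enzyme, fell from 17.2 ± 2.63 to 7.07 ± 0.811 CPM (SD, n = 4 each; log2 fold change -1.28, SE 0.147, adjusted p = 0.0157 by edgeR). *Trib3*, which encodes a pseudokinase that restrains ATF4, fell from 47.1 ± 5.05 to 32.3 ± 1.68 CPM (SD, n = 4 each; log2 fold change -0.55, SE 0.088, adjusted p = 0.0260 by edgeR). These were the 2 genes called without the block, both lower, and with the block 3 of 13 were lower and 1 higher (9.43% and 11.2% of all genes). Unblocked, *Chac1* was not called without replicate 3 or 4 of DMSO or replicate 3 of IOX5 (adjusted p up to 0.0832 by edgeR). *Trib3* was called only without IOX5 replicate 2 or IOX5 replicate 4 (up to 0.113). *Ddit4*, an inhibitor of mTORC1 that is also a known HIF target, was the higher one, at 51.3 ± 10.3 CPM with DMSO and 86.8 ± 19.4 CPM with IOX5 (SD, n = 4 each, with edgeR adjusted p-values of 0.0686 unblocked and 2.48e-05 blocked). The third lower gene was *Atf4* itself, also mentioned after its values were seen, whose log2 fold change was -0.25 (edgeR adjusted p = 0.111 unblocked and 0.0184 blocked, or up to 0.146 blocked without number 1 or number 3).

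**Figure D5:**
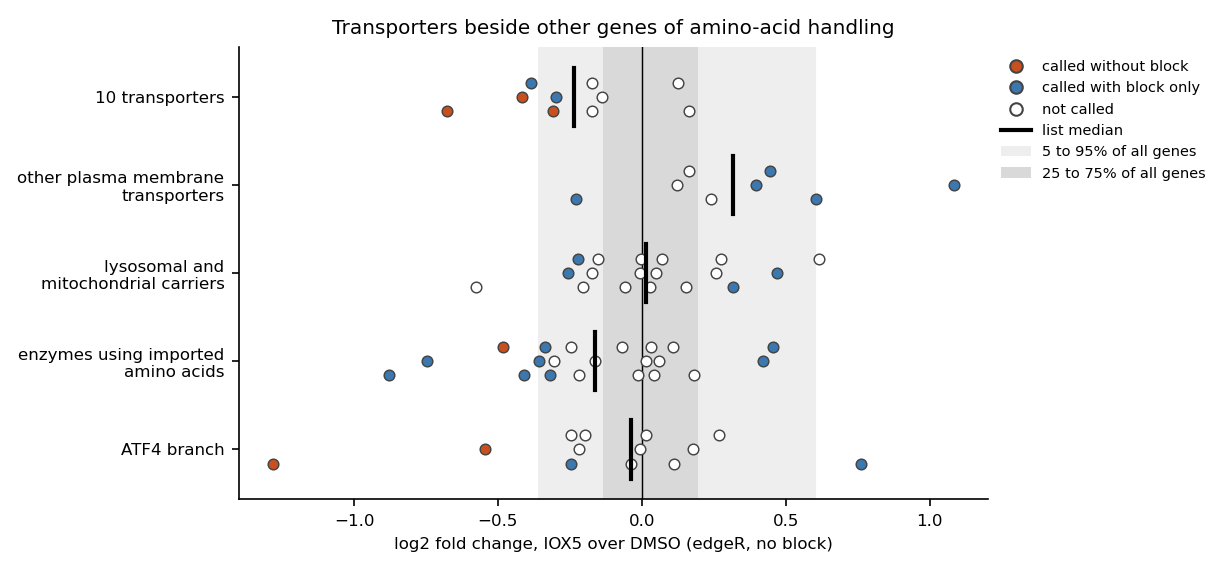
Log2 fold change of IOX5 over DMSO (x axis, edgeR without a block) for the 10 transporters and the tested genes of 4 other lists, with 1 point per gene colored by its call, black bars for list medians and grey bands for the middle 50% and 90% of all genes tested. The median of the 10 transporters lies at -0.24 and that of the other plasma membrane transporters at 0.32.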

How the data were processed

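RNA-seq was performed on 4 DMSO and 4 IOX5 samples. Per the methods, libraries were directional, from poly(A) RNA, and read from 1 end. The authors trimmed reads with Cutadapt 1.18, mapped them to the GRCm38 genome_tran index with HISAT2 2.2.1 and deposited raw counts per Ensembl gene from HTSeq 2.0.1, with versions from the submitters' processing notes. The methods name the release of that index, but neither the annotation given to HTSeq nor its strand setting is named. The 5 summary lines per file (20.6% to 22.6% of reads) were left out. No exon of another annotated gene overlaps those of the 10 genes.

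The members and lists were chosen with earlier results of these data known. Counts were filtered with filterByExpr, scaled with TMM (factors 0.988 to 1.03) and tested with edgeR 4.0.16 (R 4.3.3) by the quasi-likelihood test without a block, with Benjamini-Hochberg adjustment over all genes tested. Samples that share a number deviated together from their group means (correlations 0.758, 0.744, 0.732 and 0.636 in numbers 1 to 4). Numbers 3 and 4 correlated with each other as well. DMSO replicate 4 correlated more with IOX5 replicate 3 (0.685) than with IOX5 replicate 4 (0.636). The replicate number was treated as pairing and fitted as a block, although within numbers 3 and 4 these correlations do not settle the pairing. No label says that samples came from separate animals or cultures, so p-values measure the spread between these samples. log2 CPM values used a prior count of 2, and RPKM values divided CPM by the merged exon length in GENCODE M21. Alternatives were DESeq2 1.42.0, RLE and upper-quartile factors, other filters, other lengths, a prior count of 0.5 and samples or numbers left out, and fits on numbers 1 and 2 or 3 and 4 alone were added after seeing the data. Steps were tested on simulated data. Named genes were all 10 transporters and, from the other lists, every gene called without the block and the 3 with the smallest adjusted p with it, plus the 3 genes most like each called transporter. Outside this rule, *Slc16a10*, *Atf4*, *Bckdha* and the remaining enzymes called with the block were named after their values were seen. A planned comparison of protein sequences was not run.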

Additional observations from a re-analysis of the deposited data

Results flagged for a closer look

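*Slc1a4* in IOX5 replicate 2 stood apart from its group, at 12.7 CPM against 18.1 to 18.2 CPM in the other 3 IOX5 samples. The gap was 0.983 of the range of the group. The same number was also the lowest DMSO sample of *Slc1a4*, at 16.6 CPM. Among the 20 groups of 4 samples examined for the 10 transporters this was the 1 that stood out, and chance alone marks about 1 in 20.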

How the results depend on the processing

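The direction of the change was kept for *Slc7a1*, *Slc7a5*, *Slc3a2*, *Slc7a6*, *Slc1a4*, *Slc1a5*, *Slc38a1* and *Slc38a2* under every alternative run. That of the 2 genes not lower in the main comparison was not. Unblocked, with each sample left out in turn, *Slc7a11* ran up to 0.25 and *Slc43a1* up to 0.40. *Slc7a11* moved to -0.0095 without DMSO replicate 1 and to -0.018 without IOX5 replicate 3. *Slc43a1* moved to -0.12 without IOX5 replicate 3, and with the replicate block to -0.18 without replicate 3 and to -0.37 in numbers 1 and 2 only. The cause was not tested. RLE and upper-quartile factors and a minimum of 10 counts left 3 transporters called, and no filter on low counts left 2. Of all genes, these fits called 113, 108, 149 and 73 lower, in that order. With the replicate block 5 of the 10 were called lower, which added *Slc38a2* and *Slc1a4* and changed no other call among the 10, and 5 were called in numbers 3 and 4 only and 2 in numbers 1 and 2 only. Of all genes, 529 of 12379 were lower in numbers 3 and 4 only and 683 of 12646 in numbers 1 and 2 only. The number called ran from 0 to 5 with samples or numbers left out, and the number of all genes called lower from 0 to 1058.

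For the other lists, the replicate block gave 1 lower and 4 higher genes among the other plasma membrane transporters, 2 lower and 2 higher among the lysosomal and mitochondrial carriers, 7 lower and 2 higher among the enzymes, and 3 lower and 1 higher in the ATF4 branch. Of all genes tested it called 9.43% lower and 11.2% higher. With DESeq2, 1 carrier of the lysosome or mitochondria was higher, 4 enzymes were lower and 1 higher, and 3 ATF4-branch genes were lower and 1 higher. Of the 10471 genes given an adjusted p, DESeq2 called 602 lower and 489 higher. Numbers 1 and 2 only, with the block, gave 2 higher plasma membrane transporters, 5 higher carriers, 8 lower and 2 higher enzymes and 3 lower and 1 higher ATF4-branch genes. Of all 12646 genes tested there, 683 were lower and 916 higher. Numbers 3 and 4 only gave 2 higher plasma membrane transporters, 1 higher carrier, 6 lower and 2 higher enzymes and 3 lower and 2 higher ATF4-branch genes. Of all 12379 genes tested there, 529 were lower and 741 higher. With samples or numbers left out, the counts ran from 0 to 4 higher for the plasma membrane transporters, 0 to 1 lower and 0 to 5 higher for the carriers, 0 to 8 lower and 0 to 2 higher for the enzymes, and 0 to 4 lower and 0 to 1 higher for the ATF4 branch. Over all genes the same fits called 0 to 1058 lower and 0 to 1355 higher.

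With the length of the longest transcript in place of merged exons, the *Slc7a5* to *Slc3a2* ratio was 1.299 with DMSO and 0.899 with IOX5, the *Slc7a11* ratio with IOX5 was 0.179, and the sum of the 3 light chains was 1.70 and 1.32. In the 3 unblocked fits that lacked replicate 3 or 4 of DMSO or replicate 3 of IOX5, edgeR called 0 of all genes, while 1969, 1846 and 2111 genes had an unadjusted p under 0.05. Depth limits genes with few reads, such as *Slc43a1*, with 28 to 96 reads per sample.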
